A study of Mus musculus with 4 samples.

Results

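Capillary and venous endothelial cells of the cerebellar meninges were taken as the non-arterial, non-cycling endothelial cells of 4 droplet single-cell libraries (10x Genomics, 3′ tags). They numbered 1315 of 38722 cells that passed the cell filter. A cell was counted as endothelial if at least 3 of Cldn5, Pecam1, Cdh5, Kdr, Flt1 and Egfl7 were detected with at least 5 UMIs in sum (unique molecular identifiers, 1 per captured transcript) and the leukocyte gene Ptprc was at 0. It was counted as non-arterial if Gja4, Gja5, Bmx and Sema3g were at 0 and at most 1 of Fbln5 and Hey1 was detected, and cells with at least 3 of Mki67, Top2a, Cenpf, Birc5, Ube2c and Hmmr were dropped as cycling. This gave 207 and 284 cells in NdpKO, against 195 and 629 cells in NdpWT, with replicate 1 of a genotype before replicate 2 here and below. The cells were thus selected on the UMI counts of these 19 genes, whose levels are described here and not tested.

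NdpKO mice (genotype NdpKO; Neurod2-SmoA1+/-) lacked Ndp and were compared with NdpWT mice (genotype NdpWT; Neurod2-SmoA1+/-), all on the C57/BL6 background. All animals thus carried the SmoA1 transgene, an activated Smoothened that the Neurod2 promoter drives in the granule neuron lineage and not in endothelium. The sample fields give an age of 6 to 8 days after birth and the protocol 7 to 9 days. Each genotype has 2 libraries, each from 5 pooled cerebella whose subdural meninges were peeled off, digested with Dispase II and spun through 22% Percoll, a density step. The runs of both genotypes were matched by litter, but the labels do not say which replicate numbers were matched.

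Endothelial cells line all blood vessels. Those of capillaries and veins in the brain and its pial coverings form the blood-brain barrier, with sealed junctions, few vesicles and fenestrae, and a dense set of transporters for glucose, amino acids, monocarboxylates and iron. Norrin, the secreted product of Ndp, binds the receptor Fzd4 with its co-receptors Lrp5 and Lrp6 and the helper Tspan12, and thereby activates beta-catenin signalling in endothelial cells of retina and cerebellum. Beta-catenin signalling is known to induce barrier transporters and to repress Plvap, the protein of the diaphragms that span fenestrae. The comparison asks how these cells differ when norrin is missing.

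The kept cells had median depths of 14435 and 8586 UMIs in NdpKO, against 9612 and 7300.5 UMIs in NdpWT. All barcodes together held 123270687 and 125981161 UMIs in NdpKO, against 114363848 and 121735724 UMIs in NdpWT. NdpKO replicate 1 stood apart: 44.1% of its barcodes passed the filter, against 66.0% in NdpKO replicate 2 and 64.8% and 67.0% in the NdpWT libraries, and mitochondrial UMIs were above 10% in 21.8% of them, against 7.58% to 10.4% in the other 3 libraries. Pairs of libraries shared 15 to 48 cell barcodes. Over the kept cells Ndp stood at 0.398 and 0.472 CPM (UMIs per 1000000 UMIs) in NdpKO, against 2.07 and 1.40 CPM in NdpWT. The capillary and venous cells themselves held 1 and 0 Ndp UMIs in NdpKO and 1 and 2 in NdpWT. Which part of Ndp is missing in the knockout is not stated, so 3′ tags check the genotype only in part.

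The rule also took deep cells in which the 6 endothelial genes were a small share of the RNA. Cells with under 10 endothelial UMIs per 10000 UMIs numbered 103 of 207 in NdpKO replicate 1 and 64 of 284 in NdpKO replicate 2, against 54 of 195 in NdpWT replicate 1 and 108 of 629 in NdpWT replicate 2. Of all UMIs of the members they held 70.6% and 41.3% in NdpKO, against 54.7% and 34.1% in NdpWT. Their median depths were 33396 and 20379 UMIs in NdpKO, against 23356 and 15868 UMIs in NdpWT, and 5 UMIs are a smaller share of a deeper cell. The share of such cells was highest in NdpKO replicate 1, the deepest library. Fibroblast markers (12 genes such as Dcn, Igf2 and Ptgds) had medians of 264 and 220.2 per 10000 UMIs in NdpKO, against 268 and 198 per 10000 UMIs in NdpWT in the members that held at least 3000 UMIs but were not taken by the selection described next. The label of capillary and venous endothelium did not hold for these low-share cells.

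The same rule was therefore also applied after each cell had been thinned at random to 3000 UMIs, with shallower cells left out, and the full counts of the cells so chosen were summed. This depth-matched selection held 106 and 217 cells in NdpKO, against 130 and 481 cells in NdpWT, 934 in all. Of these, 78 and 176 in NdpKO, against 103 and 387 in NdpWT had also been taken at full depth. The others, 28 and 41 in NdpKO, against 27 and 94 in NdpWT, failed the rule at full depth. Thinning can remove their UMIs of Ptprc or of the arterial and cycling genes. Macrophage markers had 2282 and 4188 UMIs in NdpKO, against 6174 and 14031 UMIs in NdpWT in the whole selection. The cells also taken at full depth held 1717 and 3279 of them in NdpKO, against 1803 and 8104 in NdpWT. The selected cells had median endothelial counts of 70.7 and 70.7 per 10000 UMIs in NdpKO, against 72.4 and 87.5 per 10000 UMIs in NdpWT and median fibroblast counts of 7.31 and 13.6 per 10000 UMIs in NdpKO, against 7.02 and 13.0 per 10000 UMIs in NdpWT. At most 2 of them in a library fell under 10 endothelial UMIs per 10000. Their median depths still differed, at 17420.5 and 9798 UMIs in NdpKO, against 10314 and 8350 UMIs in NdpWT. Members with under 3000 UMIs, which the selection could not hold, numbered 23 and 40 in NdpKO, against 35 and 115 in NdpWT. The selection was described at length only after its values had been seen.

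**Figure D1:**
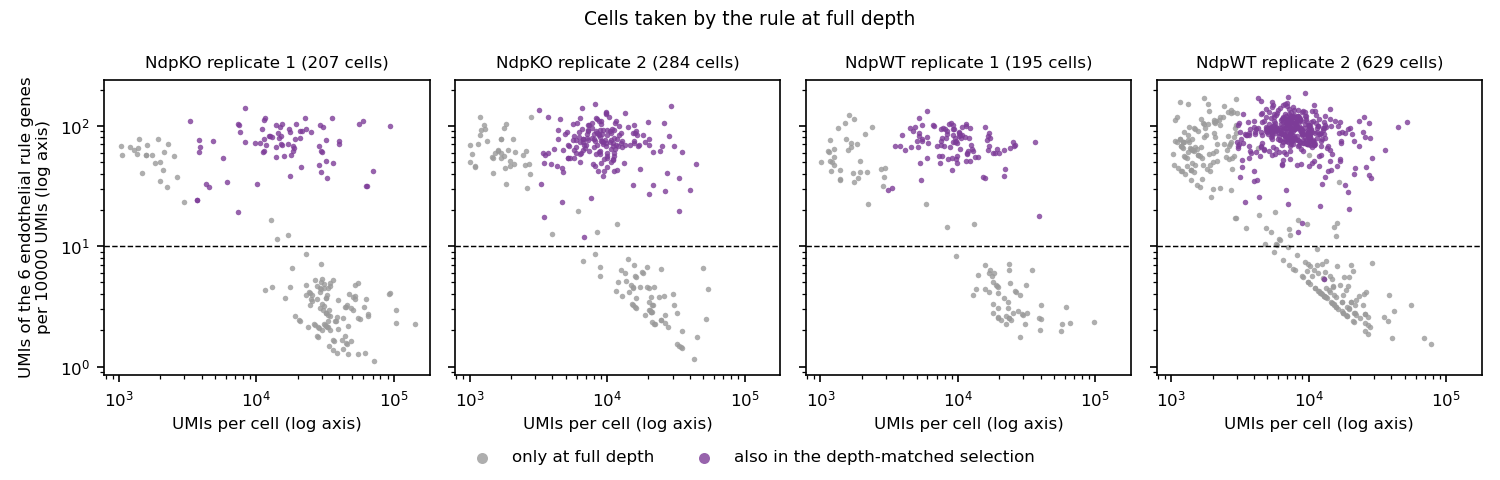
Each point is a cell taken by the rule at full depth, with its UMIs on the x axis and the UMIs of the 6 endothelial rule genes per 10000 UMIs on the y axis, both on log axes, in 1 panel per library. Purple cells were also in the depth-matched selection and grey cells were not, and the dashed line lies at 10 per 10000. A separate cloud of deep cells lies below the line in every library, with 103 and 64 cells in NdpKO and 54 and 108 cells in NdpWT, and grey cells at the upper left held under 3000 UMIs.

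The 4 markers of these cells were all present in the depth-matched cells. Cldn5, the main claudin of brain endothelial tight junctions, stood at 3616 and 3322 CPM in NdpKO, against 3490.0 and 4926 CPM in NdpWT. Kdr, the main receptor of VEGF, stood at 788 and 636 CPM in NdpKO, against 863 and 890.0 CPM in NdpWT, and the decoy receptor Flt1 at 815 and 813 CPM in NdpKO, against 600.5 and 671 CPM in NdpWT. Nr2f2, the transcription factor of venous identity and the only one of the 4 that the rule did not use, stood at 214 and 254 CPM in NdpKO, against 265 and 271 CPM in NdpWT. At 3000 UMIs per cell it was detected in cells at shares of 42.5% and 45.2% in NdpKO, against 46.9% and 51.1% in NdpWT, and in 4.06% to 7.19% of macrophages, a cell type that should lack it and here gives the background of free RNA, at the same thinned depth. Cldn5, Kdr and Flt1 were not tested, since they define the cells. Nr2f2 was not taken out of the test of genotype, and only its levels are given here.

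At full depth 8 genes changed with genotype (0.0632% of those tested), and in the depth-matched selection 304 (2.77%). Counts were summed per library and compared by edgeR's quasi-likelihood test, with adjusted p-values (Benjamini-Hochberg over all genes tested) under 0.05 called. At full depth 1 gene rose (0.00789% of 12667 tested) and 7 fell (0.0553%). In the depth-matched selection 148 rose (1.35% of 10978 tested) and 156 fell (1.42%). Of these 304 calls 299 were tested at full depth, 293 had the same sign there and 6 were called. Most depth-matched cells are also members at full depth, so the signs of the 2 selections are not independent. In all 304 the 2 NdpKO libraries lay on one side of the 2 NdpWT libraries. The genes were called on these same levels, so this separation adds no support, and its share over all tested genes was not counted. Without NdpKO replicate 1, NdpKO replicate 2, NdpWT replicate 1 and NdpWT replicate 2 in turn, the depth-matched selection gave 193, 332, 176 and 350 calls and the members at full depth 123, 663, 21 and 6. Of the 304 genes, 112 were called in every one of these 4 settings, and 267 in the cells chosen both ways, which gave 424 calls. With counts simulated from these libraries, the test found 26.5% of 2-fold changes at full depth and 51.5% in the depth-matched selection. The simulation gave every gene the same spread between libraries (dispersion 0.0349 and 0.0217) and no shift in the mix of cells. The rates therefore do not hold for genes whose libraries spread more. Hereafter rose and fell mean a call in the depth-matched selection unless full depth is named.

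The 7 genes that fell at full depth include carriers, receptors and a Wnt inhibitor. Slc16a1, a carrier of lactate and ketone bodies (ENSMUSG00000032902, chr3:104638668-104658462, plus strand, GRCm38), stood at 63.5 and 76.8 CPM in NdpKO, against 475 and 513 CPM in NdpWT (log2 change −2.82 ± 0.18 SE, adjusted p = 0.0128). Tfrc, the transferrin receptor that brings iron into the brain (ENSMUSG00000022797, chr16:32608920-32632794, plus strand), stood at 32.6 and 41.4 CPM in NdpKO, against 249 and 277 CPM in NdpWT (log2 change −2.83 ± 0.19 SE, adjusted p = 0.0128). Lrp8, a receptor of lipoproteins and reelin (ENSMUSG00000028613, chr4:107802261-107876840, plus strand), stood at 14.5 and 15.4 CPM in NdpKO, against 89.5 and 139 CPM in NdpWT (log2 change −2.94 ± 0.26 SE, adjusted p = 0.0284). Both NdpKO libraries lay far below both NdpWT libraries in all 3. The neutral amino acid carrier Slc1a4 (ENSMUSG00000020142, chr11:20302180-20332713, minus strand) was at 15.6 and 13.0 CPM in NdpKO, against 109 and 92.1 CPM in NdpWT (log2 change −2.79 ± 0.20 SE, adjusted p = 0.0128), but at 45.6 and 22.3 CPM in NdpKO, against 212 and 132 CPM in NdpWT in the depth-matched selection (log2 change −2.34 ± 0.41 SE, adjusted p = 0.0768). Ccdc141, which encodes a coiled-coil protein (ENSMUSG00000044033, chr2:77009902-77170636, minus strand), fell (log2 −2.40, adjusted p = 0.0128), as did the transcription factor Dach1 (ENSMUSG00000055639, chr14:97786853-98169765, minus strand; log2 −2.06, 0.0453) and Apcdd1, an inhibitor and target of Wnt signals (log2 −1.74, 0.0453). Cyp26b1, which degrades retinoic acid (ENSMUSG00000063415, chr6:84571414-84593908, minus strand), was the gene that rose at full depth, with 51.1 and 46.4 CPM in NdpKO, against 8.70 and 8.81 CPM in NdpWT (log2 change 2.47 ± 0.20 SE, adjusted p = 0.0207). In the depth-matched selection it stood at 15.2 and 2.52 CPM in NdpKO, against 1.97 and 4.39 CPM in NdpWT (log2 change 1.27 ± 0.85 SE, adjusted p = 0.694), while the members outside that selection, which carry the fibroblast markers, had 64.5 and 103 CPM in NdpKO, against 13.2 and 16.5 CPM in NdpWT. Without NdpWT replicate 2, Cyp26b1, Dach1 and Apcdd1 had adjusted p-values of 0.0709, 0.0676 and 0.1.

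Among the receptors of norrin and Wnt ligands no gene passed the test. Of 11 tested, 9 were higher and 2 lower, with a median log2 change of 0.22, beside 0.01 over all genes. Of the 11 genes tested by edgeR, 4 had an unadjusted p under 0.05, beside 1330 of 10978 over all genes, and 0 passed by DESeq2. Fzd4, the norrin receptor, stood at 174 and 161 CPM in NdpKO, against 116 and 142 CPM in NdpWT (log2 change 0.37 ± 0.15 SE, adjusted p = 0.354). Its co-receptors Lrp5 and Lrp6 stood at log2 0.85 and −0.15 (adjusted p = 0.272 and 0.862) and Tspan12 at 0.40 (0.478). The effector Ctnnb1, which encodes beta-catenin, had 512 and 444 CPM in NdpKO, against 341 and 344 CPM in NdpWT (log2 0.48, adjusted p = 0.134), and Fzd6 was at log2 −0.20 (0.802).

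Genes known as targets of Wnt and norrin signals were more often lower than higher. Of 16 tested, 13 were lower, and 0 rose, 7 fell and 9 did not pass, with a median log2 change of −0.52 (0 rose and 1 fell of 19 at full depth). Apcdd1 stood at 186 and 169 CPM in NdpKO, against 636 and 532 CPM in NdpWT (log2 change −1.72 ± 0.16 SE, adjusted p = 0.000394). Nkd1, a feedback inhibitor of the pathway, stood at 36.3 and 43.2 CPM in NdpKO, against 116 and 99.7 CPM in NdpWT (log2 change −1.43 ± 0.17 SE, adjusted p = 0.00184). The NdpKO libraries lay close to each other in both genes. Ppard, a nuclear receptor of fatty acids, fell (log2 −1.64, adjusted p = 0.00303), as did Foxq1, a forkhead factor of barrier endothelium (log2 −0.996, 0.0118), Tcf7, a DNA-binding partner of beta-catenin (log2 −0.97, 0.0149), and the transcription factor Sp5 (log2 −1.23, 0.047). Lef1, the other main partner of beta-catenin in endothelium, had 178 and 178 CPM in NdpKO, against 250.4 and 229.7 CPM in NdpWT (log2 −0.43, adjusted p = 0.17). The cell cycle gene Ccnd1 was at log2 0.16 (0.842), Sox17 at 0.51 (0.0998) and the general target Axin2 at −0.53 (0.602). The calls of Foxq1, Tcf7 and Sp5 were lost without NdpKO replicate 1 (adjusted p = 0.078, 0.0718 and 0.167), those of Tcf7 and Sp5 without NdpWT replicate 1 (0.0688 and 0.144), and that of Sp5 without NdpWT replicate 2 (0.0724). Sp5 stood at log2 −1.15 in the depth-matched cells that were also taken at full depth (adjusted p = 0.103).

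TCF and LEF proteins bind DNA through a core that reads CTTTGA on one strand and TCAAAG on the other. The 250 bases before each RefSeq start of a gene were searched for it on both strands. A gene counted as holding the core if any of its windows did, so genes with more windows had more chances. Of the genes that fell, 113 had a RefSeq promoter window (GRCm38.p6) and 25 of these (22.1%) held the core. Of the genes that rose, 7 of 110 (6.36%) held it. The share was 12.5% over all tested genes with a window and 13.8% over all windows. A match is a description of the letters and not a binding site, and the difference was not tested. The windows of 3 genes that fell and hold the core are shown, chosen after their values were seen, because they come from 3 roles described here: the gene with one of the lowest p-values (Ccdc141, chr2:77170636-77170885 on the minus strand), a Wnt target (Sp5, chr2:70474673-70474922 on the plus strand) and an arginine carrier (Slc7a1, chr5:148392816-148393065 on the minus strand). The Slc7a1 window lies before an inner start of the gene, which spans chr5:148327410-148399904. Capitals mark the core on either strand, which occurs 1, 2 and 3 times.
Ccdc141: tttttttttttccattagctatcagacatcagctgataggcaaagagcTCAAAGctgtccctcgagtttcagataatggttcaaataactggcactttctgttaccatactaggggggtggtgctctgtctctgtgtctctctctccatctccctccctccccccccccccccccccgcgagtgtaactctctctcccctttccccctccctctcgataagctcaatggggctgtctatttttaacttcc
Sp5: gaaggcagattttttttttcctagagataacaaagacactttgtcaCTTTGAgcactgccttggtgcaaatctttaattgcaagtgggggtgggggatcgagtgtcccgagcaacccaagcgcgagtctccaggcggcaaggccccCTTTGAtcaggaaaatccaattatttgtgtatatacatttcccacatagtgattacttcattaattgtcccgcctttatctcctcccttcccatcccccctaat
Slc7a1: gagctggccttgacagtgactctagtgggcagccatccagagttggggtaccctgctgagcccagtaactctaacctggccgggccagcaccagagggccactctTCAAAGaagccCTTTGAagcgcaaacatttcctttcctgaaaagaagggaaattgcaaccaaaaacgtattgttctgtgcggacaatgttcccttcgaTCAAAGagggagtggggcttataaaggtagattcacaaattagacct

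Carriers of organic anions, thyroid hormone and cholesterol were among the genes that fell, and the drug efflux pumps did not pass. Of 10 genes of this list 0 rose, 4 fell (beside 1.42% over all genes) and 6 did not pass, with a median log2 change of −0.73 (0 rose and 0 fell of 10 at full depth). Slco1c1, which carries thyroxine into the brain (ENSMUSG00000030235, chr6:141524368-141570177, plus strand), fell to 51.0 and 66.6 CPM in NdpKO, against 632 and 387 CPM in NdpWT (log2 change −3.10 ± 0.28 SE, adjusted p = 0.00224). At 3000 UMIs per cell it was detected in 2.83% and 7.37% of cells in NdpKO, against 63.1% and 54.1% in NdpWT, and in at most 1.71% of macrophages at that depth. The organic anion carrier Slc22a8 fell to 37.6 and 41.4 CPM in NdpKO, against 227 and 194 CPM in NdpWT (log2 change −2.40 ± 0.17 SE, adjusted p = 7.23e-05). The cholesterol exporter Abca1 fell (log2 −1.18, adjusted p = 0.00303). Of the efflux pumps, Abcg2 stood at 583 and 551 CPM in NdpKO, against 461 and 444 CPM in NdpWT (log2 0.33, adjusted p = 0.369) and Abcb1a at 316 and 228 CPM in NdpKO, against 319 and 241 CPM in NdpWT (log2 −0.04, adjusted p = 0.979), with overlapping groups in Abcb1a. The anion carrier Slco2b1 was at log2 −0.44 (0.3).

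Of 11 amino acid carriers 0 rose, 3 fell (beside 1.42% over all genes) and 8 did not pass, with a median log2 change of −0.44 (0 rose and 1 fell of 11 at full depth, the one being Slc1a4). Slc7a1, the carrier of arginine and lysine, fell to 406 and 383 CPM in NdpKO, against 1221 and 826 CPM in NdpWT (log2 change −1.37 ± 0.19 SE, adjusted p = 0.0048). Slc38a5, a glutamine carrier found in brain capillaries and veins, fell to 207 and 263 CPM, against 636 and 633 CPM in NdpWT (log2 change −1.43 ± 0.16 SE, adjusted p = 0.000951), and was detected in 26.4% and 40.6% of cells in NdpKO, against 78.5% and 74.8% in NdpWT, and in at most 1.03% of macrophages. Slc7a8, a light chain of a neutral amino acid exchanger, fell (log2 −1.60, adjusted p = 0.00303). The large neutral amino acid carrier Slc7a5 and its partner Slc3a2 stood at 589 and 406 CPM in NdpKO, against 606 and 366 CPM in NdpWT and at 566 and 548 CPM in NdpKO, against 674 and 634 CPM in NdpWT (log2 0.04 and −0.23, adjusted p = 0.987 and 0.624), and Slc38a2 at log2 −0.44 (0.537). The groups overlapped in Slc7a5.

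Of the carriers of fuels, lipids and vitamins, 15 were tested, and of these 0 rose, 3 fell and 12 did not pass, with a median log2 change of −0.75 (0 rose and 2 fell of 17 at full depth). Slc16a1 stood at 141 and 132 CPM in NdpKO, against 907 and 748 CPM in NdpWT in the depth-matched cells (log2 change −2.60 ± 0.16 SE, adjusted p = 5.74e-05) and was detected in 11.3% and 13.8% of cells in NdpKO, against 77.7% and 72.3% in NdpWT, and in at most 4.45% of macrophages. Lrp8 fell to 47.9 and 36.7 CPM in NdpKO, against 188 and 201 CPM in NdpWT (log2 change −2.21 ± 0.17 SE, adjusted p = 0.000172), and Slc5a6, a carrier of biotin and pantothenate, also fell (log2 −1.67, adjusted p = 0.0106). Slc2a1, the glucose carrier of the barrier, stood at 199.6 and 261 CPM in NdpKO, against 278 and 316 CPM in NdpWT (log2 −0.37, adjusted p = 0.401). Mfsd2a, which carries omega-3 lipids and keeps transcytosis low, had 49.2 and 70.5 CPM in NdpKO, against 244 and 142 CPM in NdpWT (log2 change −1.66 ± 0.31 SE, adjusted p = 0.0523), and the lipoprotein receptor Scarb1 was at log2 0.53 (0.13). The NdpKO and NdpWT libraries did not overlap in Mfsd2a, which missed the threshold, and it was called in the depth-matched cells also taken at full depth (log2 −2.16, adjusted p = 0.000465).

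Genes of iron uptake, storage and export were among those that fell. Of 13 genes of iron, zinc and haem handling 0 rose, 6 fell (beside 1.42% over all genes) and 7 did not pass, with a median log2 change of −0.65 (0 rose and 1 fell of 13 at full depth, Tfrc). Tfrc fell to 109.7 and 82.1 CPM in NdpKO, against 579 and 424 CPM in NdpWT (log2 change −2.39 ± 0.20 SE, adjusted p = 0.000413). Slc40a1, the iron exporter ferroportin, fell to 71.2 and 102 CPM, against 411 and 308 CPM in NdpWT (log2 change −2.04 ± 0.21 SE, adjusted p = 0.0014). The heavy chain of ferritin, Fth1, stood at 2566 and 2509 CPM in NdpKO, against 10594 and 7886 CPM in NdpWT (log2 change −1.86 ± 0.19 SE, adjusted p = 0.000648), while the light chain Ftl1 stood at 1016 and 1488 CPM in NdpKO, against 1282 and 1502 CPM in NdpWT (log2 −0.15, adjusted p = 0.886). Fth1 and Ftl1 have processed copies in the genome that can share their tags. The zinc and metal carriers Slc39a10 and Slc39a8 fell (log2 −1.10 and −0.64, adjusted p = 0.0226 and 0.0488) as did the haem-degrading enzyme Hmox1 (log2 −1.03, 0.0257). The zinc exporter Slc30a1 (log2 −0.65, 0.0501) and Hmox2 (log2 −0.13, 0.931) did not pass. Macrophages carry several of these transcripts, and the summed markers of macrophages moved with genotype in the depth-matched cells, at 989 and 1547 CPM in NdpKO, against 3037 and 2825 CPM in NdpWT. If the macrophage RNA there is scaled by C1qa (5.37 and 18.0 CPM in NdpKO, 104 and 46.9 CPM in NdpWT) to the levels of the macrophages of the same library, it amounts to 0.672% to 2.11% of the Fth1 level, 1.19% to 2.46% of Slc40a1 and 11.7% to 23.04% of Hmox1. In the depth-matched cells also taken at full depth the macrophage markers summed to 1072 and 1701 CPM in NdpKO, against 1588 and 2295 CPM in NdpWT, and Fth1 and Slc40a1 stood there at log2 −1.85 and −2.18 (adjusted p = 4.41e-05 and 1.76e-05). Hmox1 stood at log2 −0.66 in the depth-matched cells that were also taken at full depth (adjusted p = 0.271). The calls of Slc39a10, Hmox1 and Slc39a8 were lost without NdpKO replicate 1 (adjusted p = 0.103, 0.13 and 0.167), those of Slc39a10 and Slc39a8 without NdpKO replicate 2 (0.0802 and 0.187), and those of Hmox1 and Slc39a8 without NdpWT replicate 1 (0.0937 and 0.258).

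Most junction genes did not pass the test. Of 15 tested outside the rule 1 rose, 1 fell and 13 did not pass, with a median log2 change of −0.23 (0 of 16 passed at full depth). Over all tested genes 2.77% were called. Of the 15, 11 were lower and 7 had an unadjusted p under 0.05 by edgeR, beside 1330 of 10978 over all genes. Jam3, an adhesion molecule of junctions, rose to 35.8 and 26.3 CPM in NdpKO, against 13.8 and 12.4 CPM in NdpWT (log2 change 1.25 ± 0.25 SE, adjusted p = 0.0257), and Cgnl1, which links junctions to the cytoskeleton, fell to 46.1 and 64.1 CPM, against 126 and 99.1 CPM in NdpWT (log2 change −1.01 ± 0.20 SE, adjusted p = 0.0251). The tight junction genes Tjp1 and Ocln stood at log2 −0.38 and −0.60 (adjusted p = 0.42 and 0.0829) and the adhesion gene Esam at −0.15 (0.803). The calls of Jam3 and Cgnl1 were lost without NdpKO replicate 1 (adjusted p = 0.164 and 0.126), those of Jam3 and Cgnl1 without NdpWT replicate 1 (0.0533 and 0.0924), and that of Jam3 without NdpWT replicate 2 (0.0914).

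Plvap and 3 other genes of fenestrae and caveolae rose. All 11 tested had a positive change, of which 4 rose (beside 1.35% over all genes), 0 fell and 7 did not pass. The median log2 change was 0.76, beside 0.01 over all genes (0 of 11 passed at full depth). Plvap (ENSMUSG00000034845, chr8:71497765-71511752, minus strand) stood at 163 and 160.2 CPM in NdpKO, against 18.7 and 20.8 CPM in NdpWT (log2 change 3.01 ± 0.17 SE, adjusted p = 3.08e-05) and at 43.6 and 100.0 CPM in NdpKO, against 8.34 and 10.7 CPM in NdpWT at full depth (log2 change 2.87 ± 0.44 SE, adjusted p = 0.166). At 3000 UMIs per cell Plvap was detected in 32.1% and 32.7% of cells in NdpKO, against 3.85% and 4.16% in NdpWT, and in at most 0.342% of macrophages. Exoc3l2, a gene of the exocyst family (ENSMUSG00000011263, chr7:19463331-19496762, plus strand), had 64 and 51 UMIs in NdpKO, against 1 and 6 UMIs in NdpWT (log2 change 4.51 ± 0.47 SE, adjusted p = 0.000661). Ehd2, an ATPase of the caveolar neck, rose by log2 0.88 (adjusted p = 0.0202) and the caveolar coat gene Cavin2 by 0.76 (0.0185). Cav1, the main caveolin, had 657 and 408 CPM in NdpKO, against 276 and 249 CPM in NdpWT (log2 change 1.02 ± 0.22 SE, adjusted p = 0.051) and did not pass, nor did Cavin3 (log2 0.44, 0.153) and Cavin1 (0.22, 0.716). The call of Ehd2 was lost without NdpKO replicate 1 (adjusted p = 0.133), that of Cavin2 without NdpKO replicate 2 (0.0875), and those of Ehd2 and Cavin2 without NdpWT replicate 1 (0.0812 and 0.0764).

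**Figure D2:**
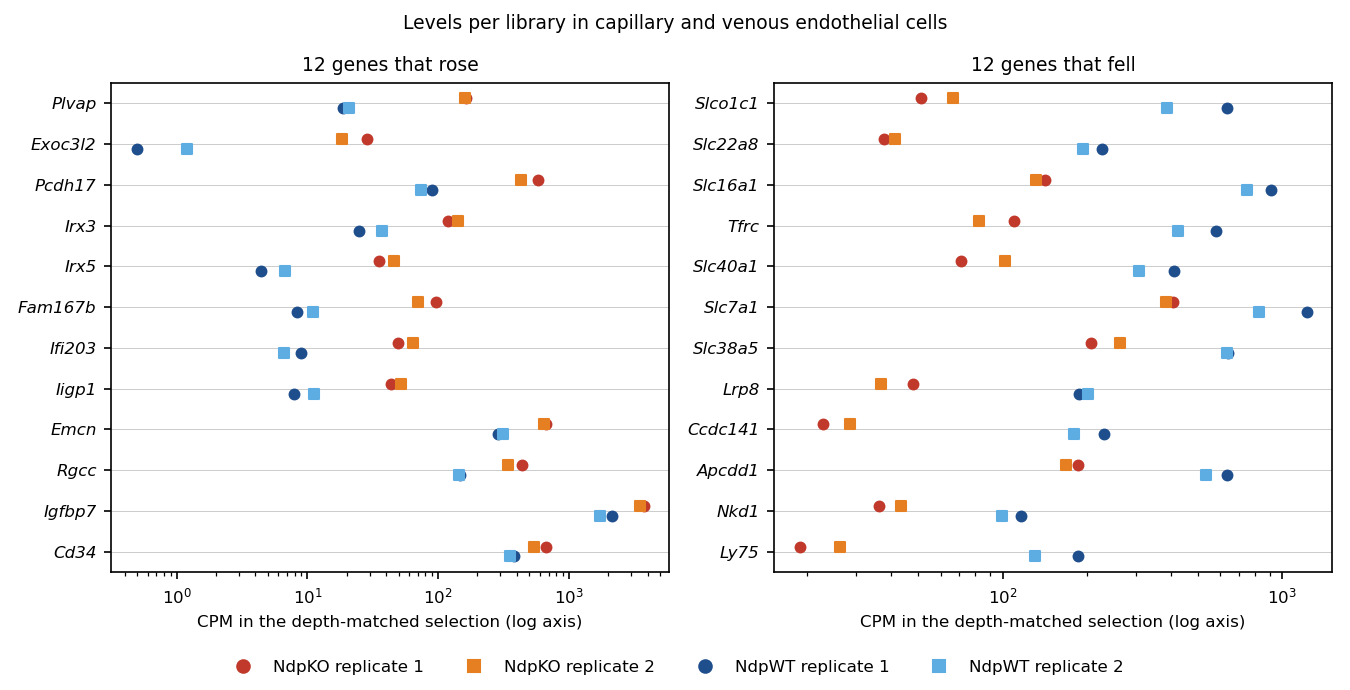
Levels of 12 genes that rose (left) and 12 that fell (right) in the depth-matched selection, in CPM on log axes. Each point is a library: red circles and orange squares are NdpKO replicates 1 and 2, and dark and light blue points are NdpWT replicates 1 and 2. The NdpKO points lie to the right of the NdpWT points in every gene on the left, as for Plvap with 163 and 160.2 CPM in NdpKO against 18.7 and 20.8 CPM in NdpWT, and to their left in every gene on the right, as for Slc16a1 with 141 and 132 CPM in NdpKO against 907 and 748 CPM in NdpWT.

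Genes of capillary identity changed in both directions. Of 13 tested 1 rose, 4 fell (beside 1.35% and 1.42% over all genes) and 8 did not pass, with a median log2 change of −0.73 (0 rose and 2 fell of 13 at full depth). Beside Slc16a1 and Tfrc, Spock2, a proteoglycan of the matrix, fell to 298 and 292 CPM in NdpKO, against 806 and 579 CPM in NdpWT (log2 change −1.23 ± 0.18 SE, adjusted p = 0.00455), and Pglyrp1, a peptidoglycan-binding protein, to 104 and 162 CPM, against 425 and 323 CPM in NdpWT (log2 change −1.48 ± 0.23 SE, adjusted p = 0.0148). Rgcc, a cell cycle regulator high in capillaries, rose to 442 and 341 CPM, against 146 and 144 CPM in NdpWT (log2 change 1.43 ± 0.16 SE, adjusted p = 0.000999). Car4, a carbonic anhydrase on the capillary surface, had 38.9 and 109 CPM in NdpKO, against 531 and 297 CPM in NdpWT (log2 change −2.46 ± 0.68 SE, adjusted p = 0.341), with a wide gap between the 2 NdpKO libraries. Itm2a, a membrane protein, was at log2 −0.17 (0.787) and Hmcn1, a matrix protein, at −0.73 (0.0531).

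Venous genes showed no common direction. Of 17 tested 2 rose, 2 fell (beside 1.35% and 1.42% over all genes) and 13 did not pass, with a median log2 change of −0.03 (0 of 18 passed at full depth). Emcn, a sialomucin of veins and capillaries, rose to 665 and 644 CPM in NdpKO, against 285 and 315 CPM in NdpWT (log2 change 1.12 ± 0.14 SE, adjusted p = 0.00224), and Lrg1, a secreted glycoprotein, to 17.0 and 24.8 CPM, against 5.42 and 8.39 CPM in NdpWT (log2 change 1.53 ± 0.32 SE, adjusted p = 0.0335). Slc38a5, described above, and the protease Ctsc fell (log2 −1.47, adjusted p = 0.00224 for Ctsc), and macrophage RNA scaled by C1qa amounts to 7.02% to 25.1% of its level. Nrp2, a receptor of semaphorins and VEGF-C, had 509 and 478 CPM in NdpKO, against 320.0 and 367 CPM in NdpWT (log2 0.52, adjusted p = 0.102), and the apelin receptor Aplnr and the actin-binding peptide Tmsb10 stood at log2 −0.03 and −0.25 (0.978 and 0.706). Ackr1, the chemokine receptor of venules, had 9.85 and 10.1 CPM in NdpKO, against 15.8 and 21.0 CPM in NdpWT (log2 −0.91, adjusted p = 0.149). The call of Lrg1 was lost without NdpKO replicate 2 (adjusted p = 0.185), and that of Lrg1 without NdpWT replicate 1 (0.105). Lrg1 stood at log2 1.42 in the depth-matched cells that were also taken at full depth (adjusted p = 0.0953).

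Arterial genes outside the rule were mostly higher. Of 20 tested 17 were higher and 3 lower, 2 rose (beside 1.35% over all genes), 0 fell and 18 did not pass. The median log2 change was 0.74, beside 0.01 over all genes (0 of 19 passed at full depth, median 0.09). Tm4sf1, a tetraspanin-like membrane protein, rose to 520.0 and 570.1 CPM in NdpKO, against 164 and 199 CPM in NdpWT (log2 change 1.58 ± 0.16 SE, adjusted p = 0.000493), and Efnb2, the ephrin of arteries, to 77.4 and 64.1 CPM, against 23.7 and 28.0 CPM in NdpWT (log2 change 1.43 ± 0.19 SE, adjusted p = 0.00303). Vim and Mgp, high in arteries, were at log2 0.24 and 0.68 (0.679 and 0.702), and Nrp1, a co-receptor of VEGF, at 0.60 (0.0501). At their full depth some of the selected cells held a UMI of Gja4, Gja5, Bmx or Sema3g, which they lacked after thinning: 16.0% and 10.1% in NdpKO, against 14.6% and 7.90% in NdpWT. These 4 genes summed to 26.4 and 20.3 CPM in NdpKO, against 31.5 and 14.9 CPM in NdpWT, and the groups overlapped. In the depth-matched cells also taken at full depth, in which these 4 genes are at 0, Tm4sf1 and Efnb2 stood at log2 1.64 and 1.42 (adjusted p = 4.90e-05 and 0.00142).

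**Figure D3:**
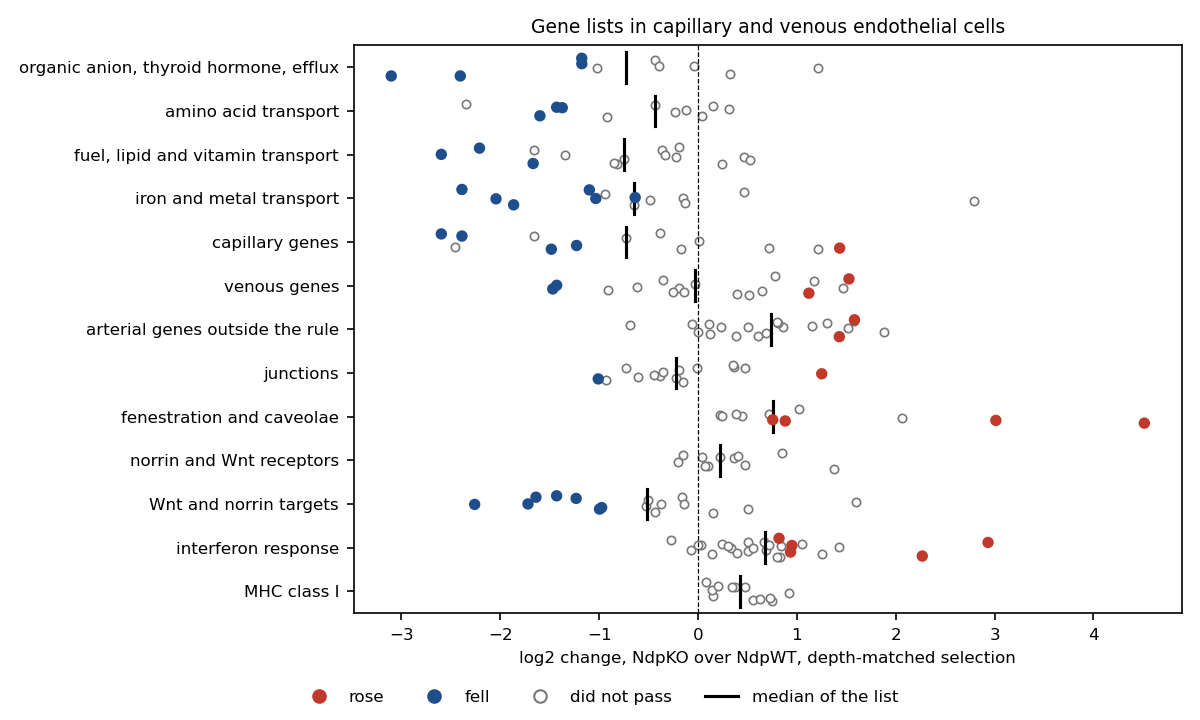
Log2 changes (NdpKO over NdpWT) in the depth-matched selection for the tested genes of 13 lists. Each point is a gene, red if it rose, blue if it fell and open if it did not pass, and black bars are the medians of the lists. The bars of the 4 transport lists lie at −0.73, −0.44, −0.75 and −0.65, and that of the fenestration and caveolae list at 0.76.

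Among 32 transcription factors of vessels 3 rose, 3 fell (beside 1.35% and 1.42% over all genes) and 26 did not pass, with a median log2 change of −0.01 (0 of 32 passed at full depth). The homeobox genes Irx3 and Irx5, which neighbour each other in the genome, rose together. Irx3 had 118 and 142 CPM in NdpKO, against 24.7 and 37.4 CPM in NdpWT (log2 change 2.02 ± 0.21 SE, adjusted p = 0.000735). Irx5 had 35.4 and 45.7 CPM in NdpKO, against 4.44 and 6.79 CPM in NdpWT (log2 change 2.76 ± 0.28 SE, adjusted p = 0.000555). Hif1a, the factor of the oxygen response, rose by log2 0.79 (adjusted p = 0.017), and Foxq1 and Tcf7 fell as given above. The abundant factors Id3, Klf2 and Id1 were at log2 0.20, 0.11 and −0.02 (0.839, 0.908 and 0.991). The homeobox gene Meis2 (ENSMUSG00000027210, chr2:115863064-116065839, minus strand), outside the list, had 79 and 43 UMIs in NdpKO, against 1 and 4 UMIs in NdpWT (log2 change 5.07 ± 0.60 SE, adjusted p = 0.00275), the largest log2 rise among called genes of at least 20 CPM in the higher genotype. The call of Hif1a was lost without NdpKO replicate 2 (adjusted p = 0.0692), and that of Hif1a without NdpWT replicate 2 (0.0536).

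Most genes of vessel growth and matrix did not pass, and those that were called all rose, beside 1.35% that rose over all tested genes. Of 15 genes of VEGF, angiopoietin and apelin signals 2 rose, 0 fell and 13 did not pass (median log2 0.09), of 14 tip cell genes 2 rose, 0 fell and 12 did not pass (0.57), of 17 basement membrane genes 2 rose, 0 fell and 15 did not pass (0.37), and of 18 genes of BMP and TGF-beta signals 0 rose, 0 fell and 18 did not pass (0.14). Of these last 18 genes by edgeR, 2 had an unadjusted p under 0.05, and 0 passed by DESeq2. An unadjusted p under 0.05 by edgeR was reached by 5 of the 15, 7 of the 14 and 7 of the 17 genes. Over all genes 1330 of 10978 reached it. Higher in NdpKO were 8 of the 15, 11 of the 14 and 14 of the 17. None of these lists held a call at full depth. Vegfa, the main vessel growth factor, rose to 31.3 and 17.6 CPM in NdpKO, against 3.94 and 7.99 CPM in NdpWT (log2 change 1.89 ± 0.39 SE, adjusted p = 0.0354). Calcrl, a receptor of adrenomedullin, rose by log2 0.86 (adjusted p = 0.0202), while its partner Ramp2 was at −0.34 (0.451). The tip cell genes Trp53i11 and Cd34 rose by 1.10 and 0.73 (0.0338 and 0.0338), while Pdgfb, Lamb1 and Apln were at 0.14, 0.37 and −0.52 (0.853, 0.442 and 0.121). Of the basement membrane genes, Lama5, a laminin chain, rose to 18.8 and 21.2 CPM, against 5.42 and 5.39 CPM in NdpWT (log2 change 1.89 ± 0.30 SE, adjusted p = 0.00888), and Col18a1 by 1.64 (0.0158). Col4a1, the main collagen of the layer, had 1182 and 752 CPM in NdpKO, against 588 and 498 CPM in NdpWT (log2 0.83, adjusted p = 0.1), Col4a2 was at log2 0.58 (0.495) and Sparc at −0.17 (0.824). The endothelial surface gene Eng was at 0.16 (0.788). The calls of Vegfa, Calcrl, Trp53i11 and Cd34 were lost without NdpKO replicate 1 (adjusted p = 0.179, 0.114, 0.0942 and 0.254), those of Vegfa, Trp53i11 and Cd34 without NdpWT replicate 1 (0.0777, 0.203 and 0.0688), and those of Calcrl, Trp53i11 and Cd34 without NdpWT replicate 2 (0.0857, 0.109 and 0.0885).

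Interferon response genes were on balance higher. Of 26 tested 24 were higher, 5 rose, 0 fell and 21 did not pass, with a median log2 change of 0.68 (0 of 28 passed at full depth). Ifi203, a nuclear DNA sensor of a family of near-identical copies whose tags can be shared, rose to 49.2 and 64.1 CPM in NdpKO, against 8.87 and 6.59 CPM in NdpWT (log2 change 2.93 ± 0.25 SE, adjusted p = 0.000343). Iigp1, an interferon-induced GTPase, rose to 43.9 and 52.2 CPM, against 7.89 and 11.2 CPM in NdpWT (log2 change 2.27 ± 0.24 SE, adjusted p = 0.000735). Bst2, which tethers viruses to the membrane, stood at 320.0 and 294 CPM in NdpKO, against 155 and 162 CPM in NdpWT (log2 change 0.95 ± 0.14 SE, adjusted p = 0.00512). Ifitm2 and Ly6e rose by log2 0.94 and 0.82 (adjusted p = 0.0218 and 0.0269), while Ifitm3, Ifi27 and Gbp7 were at 0.51, 0.84 and 0.00 (0.21, 0.27 and 0.998). All 12 tested MHC class I genes were higher (median log2 0.43, beside 0.01 over all genes) but 0 passed. Of these 12 genes by edgeR, 6 had an unadjusted p under 0.05, beside 1330 of 10978 over all genes, and 0 passed by DESeq2. These genes are near-identical copies that can share tags, and so are Ifitm2 and its neighbours. B2m stood at 373 and 299 CPM in NdpKO, against 256 and 203 CPM in NdpWT (log2 0.55, adjusted p = 0.14), with H2-D1 and H2-K1 at 0.15 and 0.48 (0.849 and 0.243). The calls of Ifitm2 and Ly6e were lost without NdpKO replicate 1 (adjusted p = 0.0797 and 0.0894), those of Ifitm2 and Ly6e without NdpKO replicate 2 (0.0606 and 0.0899), and those of Ifitm2 and Ly6e without NdpWT replicate 1 (0.082 and 0.142).

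Of 15 genes of leukocyte adhesion 1 rose (beside 1.35% over all genes), 0 fell and 14 did not pass (median log2 0.09). The one that rose was Cd34, and Icam1, Icam2 and Jam2 stood at log2 −0.35, 0.01 and −0.19 (adjusted p = 0.892, 0.995 and 0.782). Of 15 general endothelial genes outside the rule 1 rose, 0 fell and 14 did not pass (0.09), the one that rose being Emcn, and Clec14a and Cd93 were at 0.57 and 0.26 (0.0696 and 0.643). Of 20 genes of glycolysis and low oxygen 4 rose, 0 fell and 16 did not pass (0.16): the oxygen sensor Egln3 (2.46, 0.0432), Ndrg1 (1.30, 0.00768), Vegfa and the stress gene Ddit4 (0.86, 0.0391), while the enzymes Gapdh, Pkm and Ldha were at 0.08, −0.17 and 0.09 (0.933, 0.753 and 0.924). Of 25 genes that tissue dissociation induces 2 rose, 0 fell and 23 did not pass (0.28), namely Fos, with 442 and 443 CPM in NdpKO, against 238 and 159 CPM in NdpWT (log2 change 1.17 ± 0.19 SE, adjusted p = 0.0114), and Socs3 (0.83, 0.0313). The chaperones Hsp90ab1 and Hspa8 and the factor Jun stood at −0.13, 0.01 and 0.28 (0.885, 0.992 and 0.577). At full depth 0 genes of these 4 lists passed. The calls of Cd34, Egln3 and Socs3 were lost without NdpKO replicate 1 (adjusted p = 0.254, 0.41 and 0.0505), those of Ddit4 and Socs3 without NdpKO replicate 2 (0.195 and 0.11), those of Cd34, Egln3 and Ddit4 without NdpWT replicate 1 (0.0688, 0.0872 and 0.162), and those of Cd34, Egln3, Ddit4 and Socs3 without NdpWT replicate 2 (0.0885, 0.2, 0.068 and 0.172). Ddit4 stood at log2 0.71 in the depth-matched cells that were also taken at full depth (adjusted p = 0.0975).

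Other genes that rose furthest belong to no list above. Pcdh17, a protocadherin of cell adhesion, stood at 584 and 429 CPM in NdpKO, against 89.7 and 73.9 CPM in NdpWT (log2 change 2.64 ± 0.19 SE, adjusted p = 0.000127) and was detected in 70.8% and 60.4% of cells in NdpKO, against 17.7% and 17.7% in NdpWT, and in at most 1.71% of macrophages. Fam167b, a gene with no established role, stood at 97.1 and 69.8 CPM in NdpKO, against 8.38 and 10.98 CPM in NdpWT (log2 change 3.05 ± 0.24 SE, adjusted p = 0.000177). In both genes the lowest NdpKO library lay several times above the highest NdpWT library. Gask1b, a Golgi kinase-like gene, rose by log2 3.19 (adjusted p = 0.00877), the amine oxidase Aoc3, which helps leukocytes adhere, by 3.08 (0.00159), F8, the clotting factor VIII made by endothelial cells, by 2.92 (0.00138), and the synaptotagmin Syt15 by 2.89 (0.00303). Among abundant transcripts, Igfbp7, which binds insulin-like growth factors, rose to 3736 and 3492 CPM in NdpKO, against 2139 and 1718 CPM in NdpWT (log2 change 0.91 ± 0.17 SE, adjusted p = 0.0197), and Marcks, a membrane substrate of protein kinase C, by log2 0.89 (0.00888). None of these 8 genes was called at full depth. The calls of Igfbp7 and Marcks were lost without NdpKO replicate 1 (adjusted p = 0.126 and 0.0508), that of Igfbp7 without NdpKO replicate 2 (0.0558), that of Gask1b without NdpWT replicate 1 (0.0559), and that of Igfbp7 without NdpWT replicate 2 (0.0614).

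Among the furthest falls outside the transporters were those of Ddc, the decarboxylase that makes dopamine and serotonin, of Rgs5, a gene of pericytes, and of Ccdc141. Ddc had 3 and 7 UMIs in NdpKO, against 69 and 127 UMIs in NdpWT (log2 change −3.85 ± 0.38 SE, adjusted p = 0.000493). Ccdc141 stood at 22.8 and 28.4 CPM in NdpKO, against 231 and 179.8 CPM in NdpWT (log2 change −2.99 ± 0.20 SE, adjusted p = 5.97e-05). The endocytic receptor Ly75 fell to 18.8 and 26.3 CPM in NdpKO, against 186 and 130.4 CPM in NdpWT (log2 change −2.78 ± 0.24 SE, adjusted p = 0.000413). Gas2l3, which links actin and microtubules, fell (log2 −2.43, adjusted p = 0.000906), as did the adhesion receptor Adgrl3 (log2 −2.39, 0.000394), and the predicted genes Gm17167 and Gm43581 (log2 −2.81 and −2.75, 0.000401 and 0.0135). Dach1 fell in this selection too (log2 −1.63, 0.0175). The abundant transcripts of Selenop, a selenium carrier, stood at 1231 and 1159 CPM in NdpKO, against 3829 and 2561 CPM in NdpWT (log2 change −1.42 ± 0.20 SE, adjusted p = 0.0048), and those of Apoe, a lipid carrier, at 947 and 1301 CPM in NdpKO, against 2096 and 2364 CPM in NdpWT (log2 change −0.99 ± 0.19 SE, adjusted p = 0.0186). Macrophage RNA scaled by C1qa amounts to 0.581% to 2.05% of the Selenop level and 3.92% to 25.9% of the Apoe level. Rgs5 stood at 4.92 and 8.64 CPM in NdpKO, against 83.3 and 48.5 CPM in NdpWT (log2 change −3.21 ± 0.36 SE, adjusted p = 0.00322), and summed mural markers at 139 and 265 CPM in NdpKO, against 449.5 and 290.1 CPM in NdpWT. Apoe and Rgs5 stood at log2 −0.54 and −1.39 in the depth-matched cells that were also taken at full depth (adjusted p = 0.366 and 0.328). Summed mural markers were there at 190 and 359 CPM in NdpKO, against 74.0 and 276 CPM in NdpWT. The calls of Gm43581 and Apoe were lost without NdpKO replicate 1 (adjusted p = 0.102 and 0.167), and that of Gm43581 without NdpKO replicate 2 (0.0952).

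RNA of other cell types in the depth-matched selection is given as the summed CPM of marker lists. Fibroblast markers ran at 3256 and 3669.7 CPM in NdpKO, against 1238 and 3508 CPM in NdpWT, where the groups overlapped, and over all members at full depth at 39728 and 28398 CPM in NdpKO, against 29800.0 and 17117 CPM in NdpWT. Of 12 tested, Fn1 fell (log2 −0.79, adjusted p = 0.0175). Macrophage markers were lower in both NdpKO libraries, all 11 tested, and Cx3cr1 passed the test beside Apoe (log2 −3.27, adjusted p = 0.0316). In the depth-matched cells also taken at full depth the summed macrophage markers overlapped (1072 and 1701 CPM in NdpKO, against 1588 and 2295 CPM in NdpWT). There Pf4, Lyz2 and Mrc1, the 3 most abundant uncalled ones, stood at log2 −0.04, 0.71 and 0.36 (adjusted p = 0.987, 0.586 and 0.678). Markers of the lymphatic list were at 62.0 and 85.7 CPM in NdpKO, against 208 and 177 CPM in NdpWT. Mmrn1, a gene of lymphatic and some venous endothelium, fell to 43.0 and 29.5 CPM, against 107 and 89.5 CPM in NdpWT (log2 change −1.44 ± 0.21 SE, adjusted p = 0.00455), while Lyve1 was at log2 −2.32 (0.164). Lyve1 was at log2 0.35 (0.891) in the depth-matched cells also taken at full depth. Red cell transcripts ran at 33856 and 17220.0 CPM in NdpKO, against 11927 and 24108 CPM in NdpWT, with the highest value in NdpKO replicate 1. Granule lineage markers were at 266 and 453 CPM in NdpKO, against 379 and 369 CPM in NdpWT, astroglial markers at 1050.0 and 1113 CPM in NdpKO, against 1069 and 953 CPM in NdpWT, oligodendrocyte markers at 31.2 and 24.4 CPM in NdpKO, against 54.1 and 38.3 CPM in NdpWT and choroid plexus markers at 3.03 and 15.5 CPM in NdpKO, against 12.8 and 42.1 CPM in NdpWT. No gene of the last 5 of these lists passed. Gabra6, which defines mature granule neurons, and Mog, which defines myelinating oligodendrocytes, were at 0 in all 4 libraries, and Folr1 and Kcne2 of the choroid epithelium were each at 0 in 3. The part of these RNAs in the results was not tested beyond the values given. The calls of Fn1 and Cx3cr1 were lost without NdpKO replicate 1 (adjusted p = 0.145 and 0.149), that of Cx3cr1 without NdpKO replicate 2 (0.104), and that of Cx3cr1 without NdpWT replicate 1 (0.281).

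The change with genotype was next compared with that in the arterial endothelial cells of the same libraries. The test is the interaction of genotype and cell kind in 1 edgeR model with a term per library. At full depth 2 genes differed (0.0159% of 12541 tested), both with a lower change in the members: Slco1c1 (difference of log2 changes −2.32 ± 0.22 SE, adjusted p = 0.0274) and Tspan2, a tetraspanin (−1.81 ± 0.21 SE, adjusted p = 0.041). The low-share cells, for which the label did not hold, were 49.8% and 22.5% of these members in NdpKO, against 27.7% and 17.2% in NdpWT. Of the arterial cells they were 11.5% and 3.62% in NdpKO, against 6.32% and 4.12% in NdpWT. Their part in the 2 differences was not tested. In the depth-matched selection, against arterial cells chosen at the same depth, 43 genes had a higher change in capillary and venous cells (0.368% of 11669 tested) and 18 a lower one (0.154%). Of the 43, 37 had also risen in the capillary and venous cells, and 39 had a higher NdpWT level in arterial than in capillary and venous cells. Over all 10978 genes tested for genotype that share was 49.4%, over the 148 that rose 63.5% and over the 156 that fell 10.3%. Of the 18 with a lower change, 7 had a higher NdpWT level in arterial cells. These shares are a description, since the NdpWT levels enter the tests by which the genes were called. Without NdpKO replicate 1, NdpKO replicate 2, NdpWT replicate 1 and NdpWT replicate 2 in turn, 21, 150, 67 and 145 genes differed.

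Atp2b4 had 73.4 and 51.8 CPM in NdpKO and 7.89 and 10.2 CPM in NdpWT capillary and venous cells, against 189 and 188 CPM in NdpKO and 175 and 161 CPM in NdpWT arterial cells (difference 2.52 ± 0.24 SE, adjusted p = 0.000794). It encodes a calcium pump of the plasma membrane. Tm4sf1 had 520.0 and 570.1 CPM in NdpKO and 164 and 199 CPM in NdpWT capillary and venous cells, against 2187 and 2882 CPM in NdpKO and 2223 and 2122 CPM in NdpWT arterial cells (1.36 ± 0.15 SE, adjusted p = 0.00155). The NdpKO level of the capillary and venous cells thus lay between their own NdpWT level and that of arterial cells in both genes. Plpp1 had 88.6 and 98.6 CPM in NdpKO and 39.9 and 40.5 CPM in NdpWT capillary and venous cells, against 166 and 173 CPM in NdpKO and 232 and 192 CPM in NdpWT arterial cells (1.49 ± 0.17 SE, adjusted p = 0.00166), and encodes a lipid phosphatase. In arterial cells Ifi203 stood at 81.6 and 103 CPM in NdpKO, against 50.1 and 54.8 CPM in NdpWT (difference 2.14 ± 0.25 SE, adjusted p = 0.00231), and Fos at 1283 and 1344 CPM in NdpKO, against 1454 and 948 CPM in NdpWT (1.01 ± 0.12 SE, adjusted p = 0.00232). In the depth-matched cells also taken at full depth, the changes with genotype of Atp2b4, Tm4sf1, Plpp1, Ifi203 and Fos were log2 2.77, 1.64, 1.17, 3.23 and 1.24, all called.

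In the other direction, Slco1c1 had 51.0 and 66.6 CPM in NdpKO and 632 and 387 CPM in NdpWT capillary and venous cells, against 74.0 and 144 CPM in NdpKO and 434 and 307 CPM in NdpWT arterial cells (difference −1.31 ± 0.18 SE, adjusted p = 0.00745), so the level was lower in NdpKO in both kinds of cell and the log2 change was further below 0 in capillary and venous cells. Nampt had 62.2 and 69.1 CPM in NdpKO and 329 and 233 CPM in NdpWT capillary and venous cells, against 39.1 and 44.0 CPM in NdpKO and 82.9 and 76.6 CPM in NdpWT arterial cells (−1.12 ± 0.19 SE, adjusted p = 0.0194), and encodes the enzyme of NAD salvage. Myh10 had 233 and 185 CPM in NdpKO and 431 and 389 CPM in NdpWT capillary and venous cells, against 178 and 142 CPM in NdpKO and 150.3 and 179 CPM in NdpWT arterial cells (−0.92 ± 0.16 SE, adjusted p = 0.0188), and encodes a non-muscle myosin. Hmcn1 differed by −1.08 ± 0.15 SE, adjusted p = 0.00408, and Ifi27l2a, an interferon-induced gene at 1.79 and 3.60 CPM in NdpKO and 4.44 and 16.2 CPM in NdpWT capillary and venous cells, by −3.80 ± 0.55 SE, adjusted p = 0.00632. Without NdpKO replicate 1, Hmcn1, Myh10 and Nampt had adjusted p-values of 0.0545, 0.149 and 0.152, without NdpWT replicate 1 Myh10 had 0.0571, and without NdpWT replicate 2 Ifi27l2a had 0.1. Barrier and Wnt target genes that did not pass this test were as follows. For Slc16a1, with 36.4 and 76.9 CPM in NdpKO against 368 and 237 CPM in NdpWT arterial cells, the difference was log2 −0.19 (adjusted p = 0.993), for Plvap 2.41 (0.622), for Tfrc 0.50 (0.985) and for Apcdd1 −0.40 (0.867), which does not show that they change alike.

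**Figure D4:**
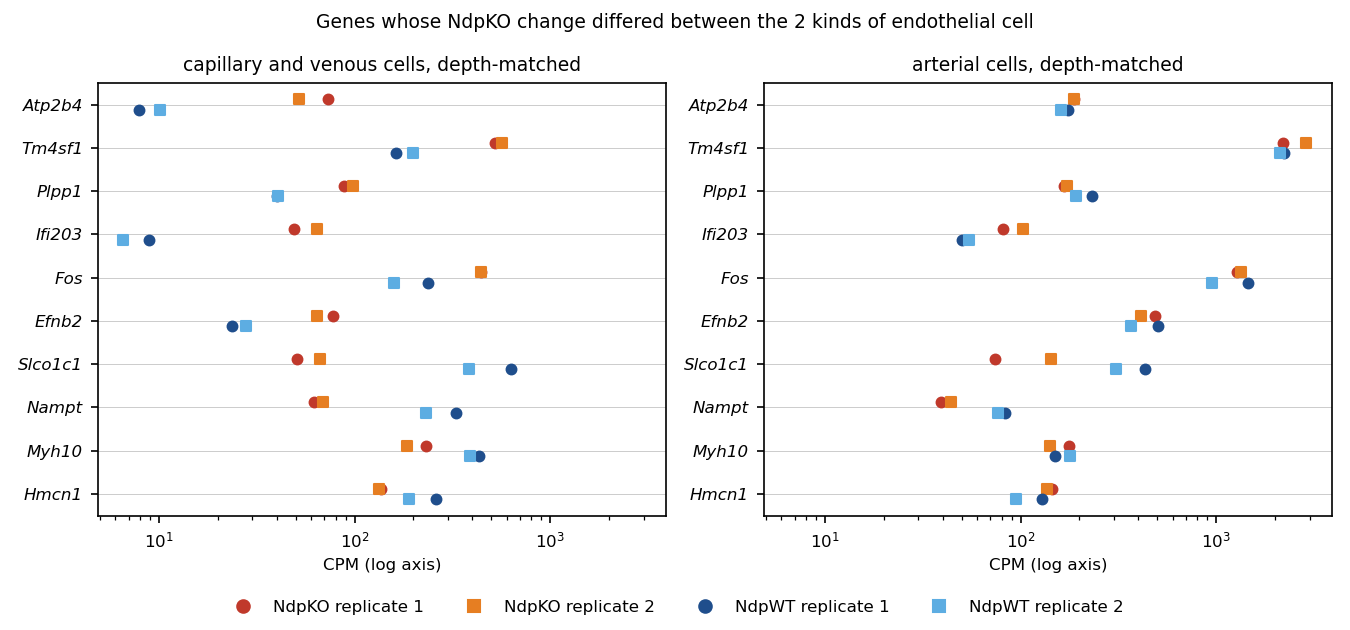
Levels of 10 genes whose change with genotype differed between capillary and venous cells (left) and arterial cells (right), both chosen after thinning, in CPM on log axes, with 1 point per library as in the legend. For the first 6 genes (Atp2b4, Tm4sf1, Plpp1, Ifi203, Fos and Efnb2) the NdpKO points lie to the right of the NdpWT points on the left panel and nearer to them or among them on the right panel, as for Atp2b4 with 73.4 and 51.8 CPM in NdpKO against 7.89 and 10.2 CPM in NdpWT on the left.

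Cells with and without an Nr2f2 UMI were compared for their change with genotype. At full depth 0 genes differed by edgeR, with 223 of 11412 at an unadjusted p under 0.05. In the depth-matched selection, with the split made at 3000 UMIs per cell, 0 had a higher and 5 a lower change in cells with Nr2f2 (0.0514% of 9724 tested), and no other tool was run. Lrp8 stood at 19.3 and 14.6 CPM in NdpKO, against 186 and 217 CPM in NdpWT, among cells with Nr2f2, and 74.4 and 52.9 CPM in NdpKO, against 190.4 and 185 CPM in NdpWT, among cells without (difference −2.00 ± 0.23 SE, adjusted p = 0.0019). Slco1c1 stood at 20.2 and 31.7 CPM in NdpKO, against 549.8 and 360.0 CPM in NdpWT, among cells with Nr2f2, and 79.5 and 92.1 CPM in NdpKO, against 713 and 417 CPM in NdpWT, among cells without (difference −1.42 ± 0.18 SE, adjusted p = 0.00226). In both genes each NdpKO library was lower in cells with Nr2f2 than in cells without. Mfsd2a stood at 21.2 and 34.3 CPM in NdpKO, against 229.7 and 138 CPM in NdpWT, among cells with Nr2f2, and 75.2 and 97.1 CPM in NdpKO, against 257 and 148 CPM in NdpWT, among cells without (difference −1.49 ± 0.21 SE, adjusted p = 0.00656). Slc6a6, the taurine carrier, differed by −0.80 ± 0.12 SE, adjusted p = 0.00937, and Col18a1, which was higher in NdpKO in both kinds of cell, by −1.74 ± 0.30 SE, adjusted p = 0.0469. These calls were lost when 1 library was left out, with adjusted p-values in parentheses: without NdpKO replicate 1 those of Lrp8, Slco1c1, Mfsd2a, Slc6a6 and Col18a1 (0.0681, 0.0704, 0.0704, 0.0704 and 0.18), without NdpKO replicate 2 those of Col18a1 (0.0803), without NdpWT replicate 1 those of Lrp8, Slco1c1, Mfsd2a, Slc6a6 and Col18a1 (0.058, 0.198, 0.305, 0.625 and 0.625) and without NdpWT replicate 2 those of Slc6a6 (0.196).

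**Figure D5:**
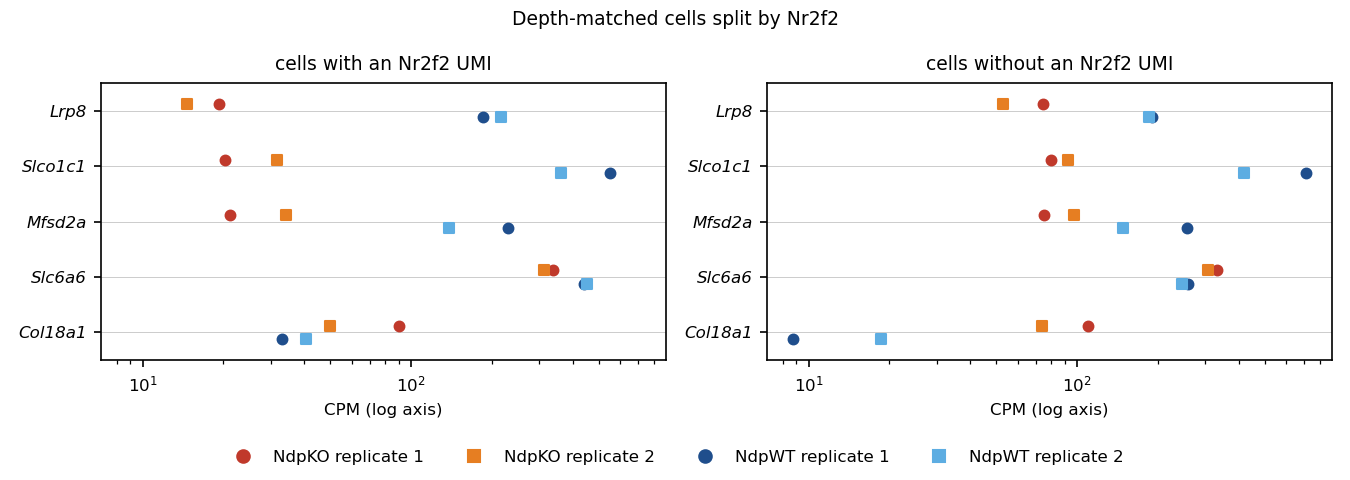
Levels of the 5 genes whose change differed between depth-matched cells with (left) and without (right) an Nr2f2 UMI, in CPM on log axes, with 1 point per library as in the legend. In Lrp8, Slco1c1 and Mfsd2a the NdpKO points on the left lie at 14.6 to 34.3 CPM and those on the right at 52.9 to 97.1 CPM.

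Capillary and venous cells made up 46.9% and 46.5% of the endothelial cells taken by the rule in NdpKO, against 58.9% and 52.2% in NdpWT, a mean of 46.7 ± 0.324% in NdpKO, against 55.6 ± 4.72% in NdpWT (SD, n = 2 each). Both NdpKO libraries lay below both NdpWT libraries, and the exact 2-sided permutation test over libraries gave p = 0.333, the smallest that 2 against 2 allow. Arterial cells took 34.9 ± 1.85% in NdpKO, against 28.5 ± 0.326% in NdpWT (p = 0.333 by the same exact permutation test) and cycling cells 18.4 ± 1.52% in NdpKO, against 16.0 ± 5.04% in NdpWT (p = 1.00, exact permutation test). After thinning, the share of capillary and venous cells was 48.6 ± 4.05% in NdpKO, against 59.2 ± 2.17% in NdpWT. Just inside the rule, 10 and 21 members in NdpKO, against 12 and 54 members in NdpWT had exactly 5 endothelial UMIs. Just outside it, 24 and 30 cells in NdpKO, against 28 and 92 cells in NdpWT had 3 of the genes but 4 UMIs. The shares depend on dissociation and Percoll and are those of the cells recovered.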

How the data were processed

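Single-cell libraries of the subdural meninges were sequenced on the 10x Genomics platform. The deposited matrices hold UMI counts per gene and barcode made with Cell Ranger 6.1.2 on mm10, per the file headers and the submitters' processing notes, and further filters are not given in the sources used here. Barcodes with at least 500 genes, 1000 UMIs and at most 10% mitochondrial UMIs were kept. Scrublet (in scanpy 1.11.5) marked 3 of 5696 cells in NdpKO replicate 1, against an expected rate of 4.56%, so its calls were not used in the main tests, doublets were kept and the cells of highest score were left out only in an alternative. Counts were summed per library and tested with edgeR 4.0.16 (TMM scaling, robust quasi-likelihood, filterByExpr with a minimum count of 10, Benjamini-Hochberg adjustment) in R 4.3.3, with the 19 genes of the rule kept in the library totals and left out of the test. The quasi-likelihood test on full-depth members was planned as the main one, and the thinned selection as an alternative. Differences of effects were interaction terms with a term per library. CPM of single genes are UMIs per 1000000 UMIs of the summed cells after TMM scaling of the library totals. Those of Ndp and of summed marker lists are plain shares without this scaling. No CPM are corrected for length. DESeq2 1.42.0, other scalings, filters, selections and leaving out each library were the alternatives. The test recovered 92.5% of genes changed 4-fold at full depth and 93.0% in the depth-matched selection on simulated data.

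Members and gene lists were chosen with earlier results of these data known. The 12 largest rises and falls were named among called genes with no overlap between genotypes and a mean of at least 20 CPM in the higher genotype. The 5 most abundant of each direction came from all called genes. Up to 5 called genes per direction of each interaction were named without these conditions. So were, from each list, the called genes and the 3 most abundant others. These choices were written for the full-depth members and were applied to the depth-matched selection as well. Other genes named (Lrp5, Lrp6, Tspan12, Axin2 and Ackr1 among them) were chosen for their role after their values were seen. Some called genes of the lists are counted and not reported here by name. Gene positions are those of GENCODE M21 on GRCm38, the assembly of mm10. Each library pools 5 cerebella, and p-values measure the spread between 2 pools per genotype. The summed members held 5745035 and 3456528 UMIs in NdpKO, against 2702664 and 5902532 UMIs in NdpWT.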

Additional observations from a re-analysis of the deposited data

Results flagged for a closer look

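The change with genotype differed between capillary and venous cells and arterial cells, by the interaction test, in genes that are named here with the difference of their log2 changes. At full depth, where the members include the low-share cells, it was −2.32 for Slco1c1 and −1.81 for Tspan2. In the depth-matched selection it was 2.52 for Atp2b4, 1.36 for Tm4sf1, 1.49 for Plpp1, 2.14 for Ifi203 and 1.01 for Fos, all with the higher change in capillary and venous cells. It was −1.31 for Slco1c1, −1.08 for Hmcn1, −0.92 for Myh10, −1.12 for Nampt and −3.80 for Ifi27l2a, with the lower change in capillary and venous cells. Ifi27l2a stood at 11.5 and 20.1 CPM in NdpKO, against 1.93 and 6.66 CPM in NdpWT arterial cells. The libraries of each genotype had 148 and 221 arterial cells in NdpKO, against 95 and 340 in NdpWT at full depth.

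Between depth-matched cells with and without an Nr2f2 UMI the change with genotype differed by −2.00 for Lrp8, −1.42 for Slco1c1, −1.49 for Mfsd2a, −0.80 for Slc6a6 and −1.74 for Col18a1. None of these 5 was called in every setting that left out 1 library. At their full depth the cells with Nr2f2 were deeper than those without in NdpKO replicate 1 and shallower in the other 3 libraries. Their median depths were 20808 and 9154 UMIs in NdpKO, against 10252 and 8180.5 UMIs in NdpWT. In the cells without they were 16008 and 10359 UMIs in NdpKO, against 10651 and 8463 UMIs in NdpWT, and the part of depth in these differences was not tested.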

How the results depend on the processing

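The 8 calls at full depth depended on the selection of cells. There were 67 with DESeq2, 344 without a filter on low counts, 26 without members that held 3 markers of another type, 304 after thinning, 96 with at most 5% mitochondrial UMIs, 0 with at least 10 endothelial UMIs (703 at an unadjusted p under 0.05, no other tool run), 154 with Fbln5 and Hey1 at 0, 342 with at least 10 endothelial UMIs per 10000, 5 without the highest doublet scores, and 6 to 663 without 1 library. Of the 304 calls after thinning, 251 were among the 342. Leaving out members with 3 markers of another type removed 204 of 207 and 260 of 284 members in NdpKO, against 159 of 195 and 588 of 629 in NdpWT, and 2688 genes were tested, so its values rest on few cells. The thinned selection gave 237 calls with DESeq2, 297 with DESeq2 size factors, 278 with a minimum count of 30 and 176 to 350 without 1 library. The test of the difference from arterial cells gave 2 calls at full depth, 0 with a minimum count of 30, 150 with at least 10 endothelial UMIs per 10000, 61 after thinning and 19 to 29 without 1 library, and after thinning 21 to 150 without 1 library. The test between cells with and without Nr2f2 gave 0 calls at full depth, 23 with at least 10 endothelial UMIs per 10000, 5 after thinning and 0 to 301 without 1 library, and after thinning 0 to 36 without 1 library. The share of endothelial cells that were capillary and venous differed by −8.87 percentage points, and by −13.68 with at most 5% mitochondrial UMIs. The cause of these moves was not tested.

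With a replicate block there were 650 calls at full depth and 745 after thinning, of which 302 were among the 304. Same-numbered libraries deviated together (r = 0.554 over genes at full depth and 0.258 after thinning). With 2 pairs and no label that ties the numbers to litters, it is not known whether the numbers mark the matched runs. At full depth the log2 change of Apoe was 0.43, and it was −1.33 without members that held 3 markers of another type and −0.99 after thinning. That of Fabp7 was 1.89, and −1.46 to 2.87 without 1 library. Of the other values of single genes, 1504 of the depth-matched selection kept their direction and side of the threshold, 85 were no longer past it and 70 newly were. With 2 libraries per genotype, 0.5% of simulated 1.5-fold changes were recovered after thinning. The simulation gave every gene the same spread between libraries, so this rate does not hold for genes with another spread. Some changes under 2-fold were called in the depth-matched selection, as for Bst2 (log2 0.95).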
